A study of Arabidopsis thaliana with 11 samples.

Results

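The comparison set seedlings with lowered PTB1 and PTB2 RNA (MI12) against seedlings with raised PTB1 RNA (OE1) and seedlings with raised PTB2 RNA (OE2), all Arabidopsis thaliana of ecotype Columbia. It rests on 6 of the 11 libraries of the series, 2 for each of the 3 genotypes. The table holds 1 RPKM value (reads per kilobase of gene per mega-read) for each gene and genotype, so 3 of its 6 columns were compared. A gene was kept if 2 or more of the 6 columns held 1 RPKM or more, which left 19669 of 33602 genes. The measure was log2(RPKM + 1) in MI12 minus the mean of the same quantity in OE1 and OE2, and a difference of at least 1 in size was counted as 2-fold. Wild type (WT) served as no control and is given only to place the values.

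MI12 carries an artificial miRNA against both AT3G01150 (PTB1) and AT5G53180 (PTB2), OE1 overexpresses AT3G01150 and OE2 overexpresses AT5G53180. WT is untransformed Columbia. All seedlings were 11 days old and grew on sucrose medium in continuous light, and RNA came from seedlings that were not dissected, as far as the labels say. The labels do not name the promoter of each transgene or say whether a genotype is 1 line. Because there was 1 value per genotype, no difference below has a replicate error, a test or a p-value, and OE1 and OE2 are lines of different genes rather than replicates. The differences against OE1 and against OE2 share the MI12 value, so they are not independent of each other. In RNA from seedlings, fewer cells of a type and less RNA per cell cannot be told apart.

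Polypyrimidine tract-binding proteins attach to runs of pyrimidines in pre-mRNA and steer the choice of splice sites. In Arabidopsis, PTB1 and PTB2 are close relatives and PTB3 is more distant. PTB genes are known to act on the splicing of their own and each other's transcripts, and splice variants with early stop codons are removed by RNA decay. Splice variants were not analysed here, and each value is a total per gene.

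The targeted genes were examined first. In MI12 the level of PTB1 (AT3G01150, at chromosome 3, 51496 to 54544, in TAIR10.1) was 2.54 RPKM, against 603 RPKM in OE1 and 6.49 RPKM in OE2. The level of PTB2 (AT5G53180, at chromosome 5, 21568131 to 21571904) in MI12 was 4.01 RPKM, against 5.74 RPKM in OE1 and 343 RPKM in OE2. WT stood at 9.46 RPKM for PTB1 and 9.03 RPKM for PTB2. MI12 was thus the lowest of the 4 columns for both genes, and each overexpressor was highest for its own transgene. The gene that was not overexpressed stood below WT in each overexpressor, PTB2 at 63.6% of WT in OE1 and PTB1 at 68.7% of WT in OE2.

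Of MI12, OE1, OE2 and WT, the lowest and highest columns were MI12 and OE1 for PTB1, and MI12 and OE2 for PTB2. The log2 difference of MI12 from the mean of OE1 and OE2 was -4.25 for PTB1 and -3.26 for PTB2. Against OE2 alone, where PTB1 was not the transgene, MI12 was 1.08 lower for PTB1, and against OE1 alone it was 0.43 lower for PTB2. PTB3 (AT1G43190), the relative that neither construct targets, was at 18.4 RPKM in MI12, against 21.3 RPKM in OE1, 20.1 RPKM in OE2 and 19.5 RPKM in WT, a difference of -0.16 from the mean of OE1 and OE2. Whether reads of the overexpressed gene were counted at its relative was not tested. PTB2 in OE1 amounted to 0.952% of PTB1 there, and PTB1 in OE2 to 1.89% of PTB2 there. The longest run of bases that PTB1 and PTB2 transcripts share is 16 in the TAIR10.1 annotation.

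Across all compared genes MI12 stood close to the overexpressors. The median difference was 0.03, and the middle 90% of genes lay between -0.41 and 0.45. At least 2-fold differences were counted at 152 genes (0.773% of those compared), of which 64 were higher in MI12 (0.325%) and 88 were lower (0.447%). Of these 152, 77 were at least 2-fold from OE1 and from OE2 in the same direction, 26 above both (0.132%) and 51 below both (0.259%). The 88 lower genes include PTB1 and PTB2, and the 51 include PTB1, genes that the constructs themselves target. AT2G01021, beside a ribosomal RNA gene, was the 1 gene of the 152 at which MI12 lay between the overexpressors, with 304 RPKM in MI12, 25.4 RPKM in OE1 and 326 RPKM in OE2. It is named because its count was 1, after its values were seen. Just inside the 2-fold line stood MAF1 at 1.01 and XTH33 at -1.002, and just outside stood AMT1;3 at 0.9996 and AT2G43620 at -0.9996. The filter's last gene inside was emb2411, whose second-highest column held 1 RPKM, and the first outside was AT5G41380 at 0.999 RPKM.

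The overexpressors also differed from each other. OE1 was at least 2-fold from OE2 at 188 genes (0.956%), 74 higher in OE1 (0.376%) and 114 lower (0.58%). MI12 was at least 2-fold above OE1 at 174 genes (0.885%) and below it at 125 (0.636%), and above OE2 at 70 (0.356%) and below it at 118 (0.6%). In all, 188 genes separated MI12 from OE2, the same number as separated OE1 from OE2, and more separated MI12 from OE1.

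**Figure D1:**
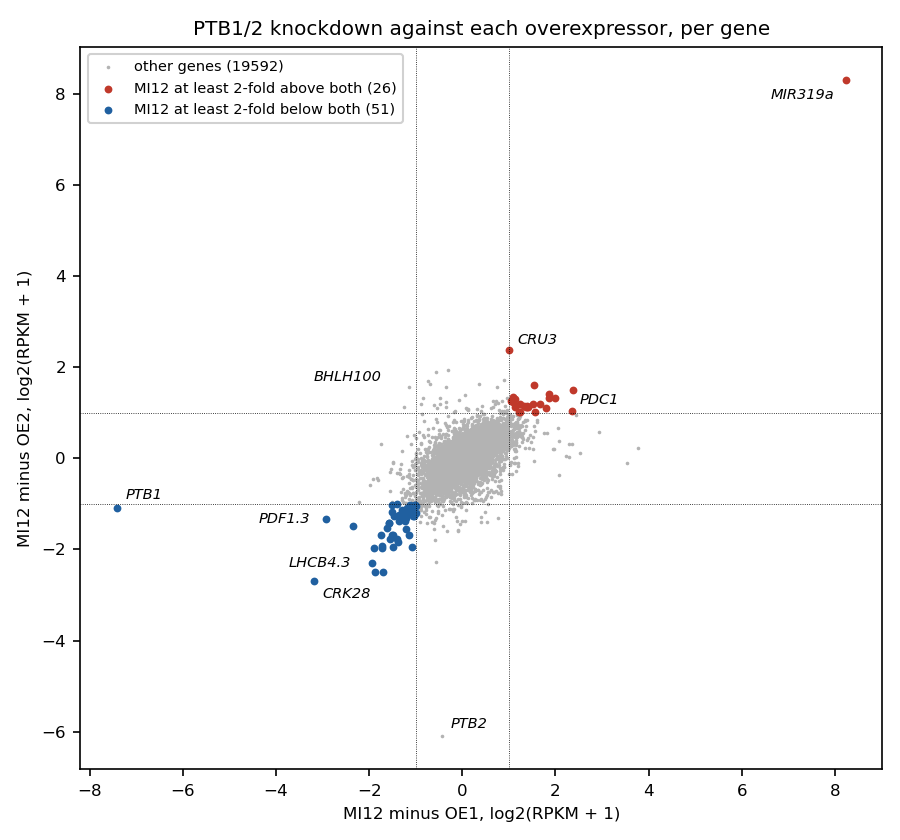
Each point is 1 of the 19669 compared genes, placed by the log2(RPKM + 1) difference of MI12 from OE1 (x axis) and from OE2 (y axis), with dotted lines at 2-fold. The 26 red points lie at least 2-fold above both overexpressors and the 51 blue points at least 2-fold below both. MIR319a stands alone at the upper right, PTB1 at the far left and PTB2 at the bottom, and BHLH100 lies below OE1 and above OE2.

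MIR319a (AT4G23713, chromosome 4, 12352956 to 12353131) had the largest difference of any compared gene in either direction. The locus encodes miR319a, a small RNA that directs cleavage of transcripts of class II TCP growth regulators. Its precursor and mature forms are shown because this locus sets MI12 apart from both overexpressors more than any other. Sequences are from the RefSeq TAIR10.1 genome, plus strand, written as DNA from 5′ to 3′, with capitals on the seed (bases 2 to 8) of the mature form and on the mature form within the precursor.
miR319a mature, chr4:12353109-12353129: tTGGACTGaagggagctccct
MIR319a precursor, chr4:12352956-12353131: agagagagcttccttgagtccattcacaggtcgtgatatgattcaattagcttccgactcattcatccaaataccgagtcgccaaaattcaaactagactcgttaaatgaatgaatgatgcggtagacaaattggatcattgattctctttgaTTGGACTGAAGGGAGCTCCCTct

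MIR319a was at 316 RPKM in MI12, against 0.058 RPKM in OE1 and 0 RPKM in OE2. OE1 held about 1 read, so the MI12 to OE1 ratio of 5350 had a 95% exact counting interval from 960 to 211343. OE2 held 0 reads. Against a floor of 3 counts in that column MI12 was at least 1474-fold higher, and the lower limit of the wider, two-sided 95% exact interval was 1198. WT stood at 0.121 RPKM and the PTB3 overexpressor (OE3) at 0.315 RPKM, while the PTB3 knockdown (MI3), which also carries an artificial miRNA, stood at 261 RPKM. Both artificial miRNA lines were thus high and the other 4 columns were below 1 RPKM. Only MI12 and MI3, the columns where it was high, carried MIR319a past the filter. The labels do not name the backbone of the artificial miRNA constructs, and reads of the endogenous locus and of a transgene with the same sequence cannot be told apart in this table.

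The other miR319 loci and the targets gave no like difference. MIR319b was at 0.36 RPKM in MI12, against 0.42 RPKM in OE1 and 0.51 RPKM in OE2, and MIR319c at 0.32, 0.10 and 0.25 RPKM in the same order. The 5 compared TCP targets, TCP2, TCP3, TCP4, TCP10 and TCP24, were each below both overexpressors, by 0.07 to 0.34 from their mean. TCP4, which restrains leaf cell proliferation, was at 13.1 RPKM in MI12, against 16.9 RPKM in OE1 and 15.6 RPKM in OE2. Among all compared genes, MI12 lay below both overexpressors by any amount at 28.6%, and above both at 41.3%.

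The genes next furthest above both overexpressors were chosen by the smaller of their differences from OE1 and OE2. AIR1 (AT4G12550, chromosome 4, 7439115 to 7439805), a lipid-transfer-like protein first found in auxin-treated root cultures, was at 15.6 RPKM in MI12, against 4.73 RPKM in OE1 and 4.44 RPKM in OE2. The ratio was 3.31 to OE1 (counting interval 2.91 to 3.77) and 3.52 to OE2 (3.06 to 4.06). Its neighbour AT4G12545, of the same protein superfamily, was at 14.8 RPKM in MI12, against 3.31 RPKM in OE1 and 5.29 RPKM in OE2. AT5G46890 and AT5G46900, 2 further members of that superfamily, gave almost equal values, 40.6 and 40.7 RPKM in MI12, against 10.4 and 9.49 RPKM in OE1 and 14.7 and 15.7 RPKM in OE2. These close neighbours on chromosome 5 are similar copies whose reads may have been shared, so their split is uncertain.

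Other genes in this set have varied roles. TIP2;3, a water channel of the vacuole membrane, was at 11.8 RPKM in MI12, against 3.03 RPKM in OE1 and 4.65 RPKM in OE2. PELPK2, a hydroxyproline-rich cell wall glycoprotein, was at 10.2 RPKM in MI12, against 2.91 RPKM in OE1 and 3.87 RPKM in OE2. The tau-class glutathione S-transferases, enzymes of detoxification, were represented by GSTU25, at 24.8 RPKM in MI12 against 9.28 RPKM in OE1 and 10.7 RPKM in OE2, and GSTU22, at 12.8 RPKM in MI12 against 4.17 RPKM in OE1 and 5.33 RPKM in OE2. AT5G10040, an uncharacterized protein, was at 5.21 RPKM in MI12, against 0.192 RPKM in OE1 and 1.18 RPKM in OE2, and about 8 reads lay behind the OE1 value. The remaining members were LHCB1.4, described below with its family, and AT4G33610, a glycine-rich protein, at 16.4 RPKM in MI12 against 5.65 RPKM in OE1 and 6.95 RPKM in OE2.

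For most genes above both overexpressors, WT lay between MI12 and the overexpressors. This was so for 22 of the 26, and at no gene did WT reach MI12. At the other 4 genes, AT4G13575, CRU3, AT5G46900 and PORA, WT was at or below the nearer overexpressor, named after their values were seen. AIR1, for example, stood at 10.8 RPKM in WT. All 26 genes were chosen for a gap between MI12 and both overexpressors, so a further column tends to fall inside it. The share over all compared genes was not computed. Markers of root tissue moved the same way as these genes, as given below, and their part in these differences was not tested.

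The genes furthest below both overexpressors began with CRK28 (AT4G21400, chromosome 4, 11398857 to 11402180), a cysteine-rich receptor-like kinase of the cell surface. CRK28 was at 2.53 RPKM in MI12, against 31.2 RPKM in OE1 and 21.8 RPKM in OE2, with WT at 6.71 RPKM. The ratio was 0.0810 to OE1 (counting interval 0.0745 to 0.0880) and 0.116 to OE2 (0.107 to 0.126). WT thus lay between the knockdown and the overexpressors for this gene. The same order held at AT4G36648, a non-coding RNA, with 26.4 RPKM in MI12, 100 RPKM in OE1, 106 RPKM in OE2 and 45.9 RPKM in WT. AT4G25707, annotated as a splicing factor 3A subunit, was at 2.04 RPKM in MI12, against 10.2 RPKM in OE1 and 16.1 RPKM in OE2, with WT at 6.93 RPKM.

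LHCB4.3 (AT2G40100, chromosome 2, 16745628 to 16747424), a minor antenna protein of photosystem II, was at 4.27 RPKM in MI12, against 19.2 RPKM in OE1 and 24.9 RPKM in OE2. PnsL4, a lumenal subunit of the chloroplast NADH dehydrogenase-like complex, was at 11.2 RPKM in MI12, against 34.8 RPKM in OE1 and 41.1 RPKM in OE2. HSFA3, a transcription factor of the heat and drought response, was at 2.73 RPKM in MI12, against 10.4 RPKM in OE1 and 9.72 RPKM in OE2. ESM1, a modifier of glucosinolate breakdown, was at 58.7 RPKM in MI12, against 152 RPKM in OE1 and 153 RPKM in OE2. For HSFA3 and ESM1 the overexpressors were close together and MI12 stood apart from both.

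The others were AT1G09500, AT1G76020, AT1G64360, AT3G55240 and PDF1.3, with MI12 between 3.34 and 7.64 RPKM and the overexpressors between 11.5 and 38.8 RPKM. Of the 51 genes at least 2-fold below both, WT lay between MI12 and the nearer overexpressor at 39. WT was at or past the nearer overexpressor at 10, among them PTB1 (9.46 RPKM in WT), LHCB4.3 (19.8 RPKM) and PDF1.3 (29.2 RPKM). It was at or below MI12 at 2, BAM5, a beta-amylase, and AT4G19400, which are named after their values were seen. BAM5 was at 5.91 RPKM in MI12, against 13.7 RPKM in OE1, 25.6 RPKM in OE2 and 4.49 RPKM in WT. The 51 genes too were chosen for a gap, so a place of WT inside it is favoured by the choice.

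**Figure D2:**
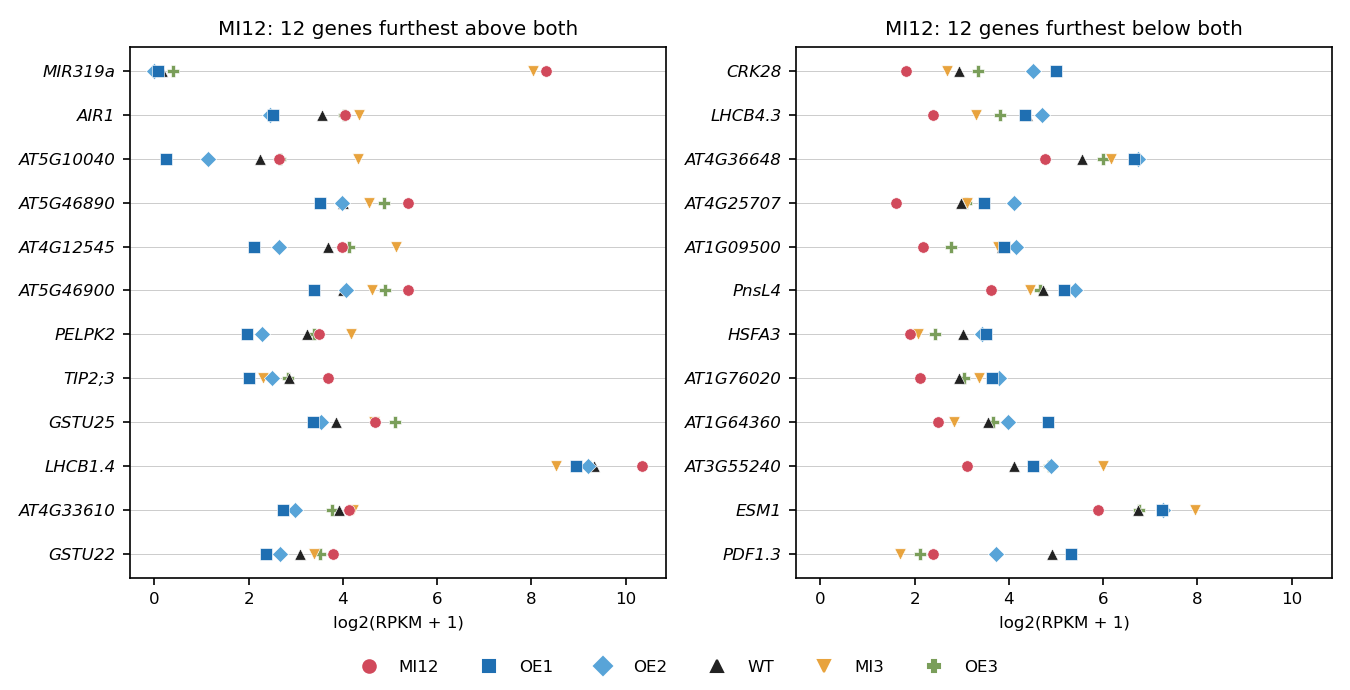
Levels as log2(RPKM + 1) on the x axis for the 12 genes furthest above both overexpressors (left) and the 12 furthest below both (right), 1 symbol per genotype. Every row has MI12 (circle) outside the range of OE1 (square) and OE2 (diamond) by construction of the choice. WT (upward triangle) lies between in most rows, a place that the choice favours, and MI3 (downward triangle) sits beside MI12 for MIR319a.

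Further genes at least 2-fold from both overexpressors are named after their values were seen. THIC, an enzyme of thiamine synthesis, was at 34.5 RPKM in MI12, against 81.6 RPKM in OE1 and 103 RPKM in OE2. PDX2, an enzyme of vitamin B6 synthesis, was at 7.02 RPKM in MI12, against 17.1 RPKM in OE1 and 17.8 RPKM in OE2. ELIP1 and ELIP2, early light-induced proteins, were at 1.37 and 0.839 RPKM in MI12, against 5.24 and 4.48 RPKM in OE1 and 3.76 and 3.91 RPKM in OE2. LPA19, an assembly factor of photosystem II, was at 7.28 RPKM in MI12, against 18.9 RPKM in OE1 and 18.1 RPKM in OE2. In the opposite direction PORA, a light-dependent enzyme of chlorophyll synthesis, was at 4.19 RPKM in MI12, against 1.2 RPKM in OE1 and 1.28 RPKM in OE2. MT2A, a metallothionein, was also below both, with 362 RPKM in MI12, 760 RPKM in OE1 and 876 RPKM in OE2.

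Among nuclear genes of photosynthesis, the antenna genes were mostly higher in MI12. Of 19 antenna genes compared, which encode the chlorophyll-binding proteins of the photosystems, 15 were above both overexpressors (41.3% of all compared genes were) and 2 were below both. Their median difference was 0.53, beside 0.03 over all compared genes. At least 2-fold higher were 4 (0.325% of all compared genes were), and 1, LHCB4.3, was at least 2-fold lower (0.447% of all). The summed level of the 19 genes was 27934 RPKM in MI12, against 16424 RPKM in OE1, 20422 RPKM in OE2 and 19929 RPKM in WT. MI12 therefore held the highest sum of the 4 columns.

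Within the antenna family the 5 largest upward differences were in LHCB1 and LHCB2 genes, which form the trimeric antenna of photosystem II. LHCB1.4 was at 1297 RPKM in MI12, against 494 RPKM in OE1 and 587 RPKM in OE2, and the ratio was 2.63 to OE1 (counting interval 2.60 to 2.65). LHCB2.2 was at 685 RPKM in MI12, against 320 RPKM in OE1 and 290 RPKM in OE2, a difference of 1.16. LHCB1.5 was at 2875 RPKM in MI12, against 973 RPKM in OE1 and 1911 RPKM in OE2, and LHCB2.1 was at 1045 RPKM in MI12, against 555 RPKM in OE1 and 472 RPKM in OE2. The copies of LHCB1 share long stretches of sequence, so their split is uncertain, while the family's sum depends less on it. The single-copy antenna genes differed less, with LHCB5 at 1609 RPKM in MI12, against 1357 RPKM in OE1 and 1407 RPKM in OE2.

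The genes of the Rubisco small subunit and its activase lay the other way. All 5 genes in this list were below both overexpressors (28.6% of all compared genes were), with a median difference of -0.72. At least 2-fold lower was 1 of them (0.447% of all). RBCS1B was at 704 RPKM in MI12, against 1531 RPKM in OE1 and 1442 RPKM in OE2, and WT lay between at 1006 RPKM. RBCS2B was at 1202 RPKM in MI12, against 2208 RPKM in OE1 and 2440 RPKM in OE2. The summed level was 8714 RPKM in MI12, against 12222 RPKM in OE1, 14514 RPKM in OE2 and 11453 RPKM in WT. In MI3, which rests on 1 library, the sum was lower still at 5561 RPKM, and in OE3 it was 9696 RPKM. The RBCS genes are near-identical, and their sum depends less than single values on how reads were split.

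Plastid-encoded and ribosomal RNA genes were examined too. Of 102 compared chloroplast-encoded genes, 67 were above both overexpressors (41.3% of all compared genes were) and 20 below both (28.6% of all), with a median difference of 0.16. None was at least 2-fold higher (0.325% of all compared genes were) and 1, ATCG00090, was at least 2-fold lower (0.447% of all). ATCG00090 was at 5.81 RPKM in MI12, against 9.72 RPKM in OE1 and 17.0 RPKM in OE2. For the set as a whole, all 133 genes in the table summed to 3226 RPKM in MI12, against 1854 RPKM in OE1, 2531 RPKM in OE2 and 1845 RPKM in WT. The median of 50 mitochondrially encoded genes was 0.02. All 4 ribosomal RNA genes were at least 2-fold higher in MI12 than the mean of OE1 and OE2 (0.325% of all compared genes were). The 4 form pairs with almost equal values, so they are not 4 separate measurements. The 18S gene AT3G41768 was at 2325 RPKM in MI12, against 1017 RPKM in OE1, 1269 RPKM in OE2 and 1391 RPKM in WT. None of the 4 was 2-fold above both overexpressors. The 5.8S gene AT3G41979 was at 576 RPKM in MI12, against 146 RPKM in OE1 and 502 RPKM in OE2, and the rRNA gene AT2G01020 was at 570 RPKM in MI12, against 147 RPKM in OE1 and 497 RPKM in OE2, so MI12 was near OE2 for both. The other 18S copy, AT2G01010, gave almost the same values as AT3G41768, and reads of these copies may have been shared. With organelle and ribosomal RNA genes left out and the rest rescaled, 69 genes were at least 2-fold higher and 82 lower, so the counts stayed within 1.5 times.

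Genes of ethylene-jasmonate defence were among the lowest. This pathway acts through ERF1 and ORA59 on plant defensins, small antifungal peptides. Promoters of some defensins carry the GCC box, the letters GCCGCC. Of 9 listed genes 7 were compared, since ERF1 and THI2.1 fell under the filter. Of the 7, 4 were at least 2-fold lower in MI12 (0.447% of all compared genes were) and none higher, with a median difference of -1.13 (-0.14 over the list without the filter). These 4 were the defensins. PDF1.2 was at 22.5 RPKM in MI12, against 92.0 RPKM in OE1, 34.5 RPKM in OE2 and 57.1 RPKM in WT, and PDF1.2b was at 3.63 RPKM in MI12, against 10.12 RPKM in OE1, 9.77 RPKM in OE2 and 10.3 RPKM in WT. PDF1.3 was at 4.203 RPKM in MI12, against 38.8 RPKM in OE1 and 12.2 RPKM in OE2, and PDF1.2c followed PDF1.2. All 4 defensins were lower still in MI3, which rests on 1 library, and in OE3. PDF1.2, for example, was at 7.62 RPKM in MI3 and 18.4 RPKM in OE3. PDF1.2, PDF1.2c and PDF1.3 are near-identical, so their split is uncertain.

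The regulator ORA59 and other members lay elsewhere. ORA59 was at 5.52 RPKM in MI12, against 8.18 RPKM in OE1 and 3.21 RPKM in OE2. HCHIB, a basic chitinase, was at 15.9 RPKM in MI12, against 4.79 RPKM in OE1 and 16.6 RPKM in OE2, and PR4 was at 78.2 RPKM in MI12, against 61.6 RPKM in OE1 and 115 RPKM in OE2. For these 3 genes MI12 lay between the overexpressors. The median over the list against OE2 alone was -0.55, and against OE1 alone -1.26.

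The 250 bases before the annotated start of PDF1.2 and PDF1.2b are shown because these defensins were low in MI12 and their windows hold the GCC box, in capitals. Both strands were searched for GCCGCC in such windows of 27561 protein-coding genes, and 1.88% of the windows held it, against 3 of the 9 listed genes (PDF1.2, PDF1.2b and ORA59). The windows of PDF1.2c and PDF1.3, which were low in MI12 too, did not hold it. A match is a description of the letters only. Sequences are from RefSeq TAIR10.1, read along the gene's strand.
PDF1.2 upstream, chr5:17907639-17907888, minus strand: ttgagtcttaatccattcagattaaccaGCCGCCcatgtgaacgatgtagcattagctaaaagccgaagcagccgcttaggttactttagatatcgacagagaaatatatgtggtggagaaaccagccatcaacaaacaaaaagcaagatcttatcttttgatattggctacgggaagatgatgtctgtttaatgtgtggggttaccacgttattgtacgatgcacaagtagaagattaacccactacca
PDF1.2b upstream, chr2:11088873-11089122, plus strand: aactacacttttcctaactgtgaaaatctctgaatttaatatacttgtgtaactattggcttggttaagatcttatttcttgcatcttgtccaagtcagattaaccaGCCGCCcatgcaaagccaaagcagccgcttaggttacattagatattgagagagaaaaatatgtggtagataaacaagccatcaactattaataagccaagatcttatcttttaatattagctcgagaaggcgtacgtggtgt

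Heat shock genes were lower in MI12 as well. Small heat shock proteins hold unfolding proteins and are switched on by heat shock factors, which bind repeats of GAA and TTC. Of 11 listed genes 8 were compared, and 3 of these were at least 2-fold lower (0.447% of all compared genes were). Below both overexpressors were 6 of the 8 (28.6% of all). The median difference was -0.77 (-0.59 over all 11 listed without the filter). HSP17.6A was at 1.02 RPKM in MI12, against 3.17 RPKM in OE1, 3.84 RPKM in OE2 and 4.74 RPKM in WT. HSP17.4 was at 1.49 RPKM in MI12, against 4.75 RPKM in OE1 and 3.37 RPKM in OE2, and AT1G53540 was at 1.01 RPKM in MI12, against 8.35 RPKM in OE1 and 2.89 RPKM in OE2. Levels of the 3 genes were at most 8.35 RPKM, and about 85 reads lay behind the MI12 value of HSP17.6A. MI3 and OE3 were near or below MI12 at all 3, with HSP17.6A at 1.06 RPKM in MI3 and 0.794 RPKM in OE3. Over all 11 listed genes the sum was 16.9 RPKM in MI12, 25.0 RPKM in MI3 and 15.7 RPKM in OE3.

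The larger chaperones differed less. Of 10 chaperone and heat shock factor genes compared, 7 were below both overexpressors (28.6% of all compared genes were) and none at least 2-fold lower, with a median of -0.25. HSP70 was at 22.3 RPKM in MI12, against 50.4 RPKM in OE1, 28.6 RPKM in OE2 and 56.4 RPKM in WT. For HSP70, MI3 stood at 33.4 RPKM and OE3 at 14.5 RPKM. MBF1C, a coactivator of heat tolerance, was at 6.58 RPKM in MI12, against 13.1 RPKM in OE1 and 8.49 RPKM in OE2. OE2 stood nearer to MI12 than OE1 did for both genes.

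The upstream windows of HSP17.4 and AT1G53540 are shown because both genes were at least 2-fold lower and hold GAANNTTC, a core of the heat shock element, in capitals. Of all 27561 windows, 9.55% held the motif on either strand, against 3 of the 11 listed small heat shock genes (27.3%). In the ethylene-jasmonate list 2 of 9 windows held it (22.2%), and the window of HSP17.6A did not. The sequences come from RefSeq TAIR10.1 and run along the gene's strand.
HSP17.4 upstream, chr3:16984868-16985117, minus strand: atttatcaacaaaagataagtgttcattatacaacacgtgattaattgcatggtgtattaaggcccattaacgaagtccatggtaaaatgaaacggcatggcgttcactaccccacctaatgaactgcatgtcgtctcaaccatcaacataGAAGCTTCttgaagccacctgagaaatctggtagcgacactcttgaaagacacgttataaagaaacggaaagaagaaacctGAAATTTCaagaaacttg
AT1G53540 upstream, chr1:19980049-19980298, plus strand: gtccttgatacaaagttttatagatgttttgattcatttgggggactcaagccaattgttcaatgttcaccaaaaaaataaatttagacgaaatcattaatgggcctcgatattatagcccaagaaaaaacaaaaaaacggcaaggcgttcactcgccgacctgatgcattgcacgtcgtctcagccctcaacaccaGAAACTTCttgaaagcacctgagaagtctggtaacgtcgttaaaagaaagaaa

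Pigment genes of the flavonoid pathway were lower without passing 2-fold. All 5 compared late anthocyanin genes were below both overexpressors (28.6% of all compared genes were), with a median of -0.75 (-0.38 over all 9 listed without the filter), and 8 of 10 early flavonoid genes were, with a median of -0.36. DFR, the reductase that opens the anthocyanin branch, was at 1.72 RPKM in MI12, against 3.61 RPKM in OE1, 4.08 RPKM in OE2 and 2.02 RPKM in WT. TT4, chalcone synthase, the entry enzyme of the pathway, was at 40.4 RPKM in MI12, against 51.2 RPKM in OE1, 72.3 RPKM in OE2 and 90.1 RPKM in WT. WT stood near MI12 for DFR and above all 3 other columns for TT4.

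Genes of low-oxygen fermentation were higher in MI12, and OE1 was the lowest column for those past 2-fold. Of 15 compared, 4 were at least 2-fold higher (0.325% of all compared genes were) and none lower. Above both overexpressors were 9 of the 15 (41.3% of all), and the median was 0.35. PDC1, pyruvate decarboxylase, was at 24.5 RPKM in MI12, against 4.02 RPKM in OE1, 11.3 RPKM in OE2 and 24.1 RPKM in WT. ADH1, alcohol dehydrogenase, was at 38.5 RPKM in MI12, against 10.7 RPKM in OE1, 25.9 RPKM in OE2 and 45.1 RPKM in WT. SUS4, a sucrose synthase, and HRE2, an ethylene response factor of hypoxia, were at least 2-fold higher than the mean too. For PDC1, ADH1 and SUS4, MI12 stood nearer to WT than either overexpressor did.

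**Figure D3:**
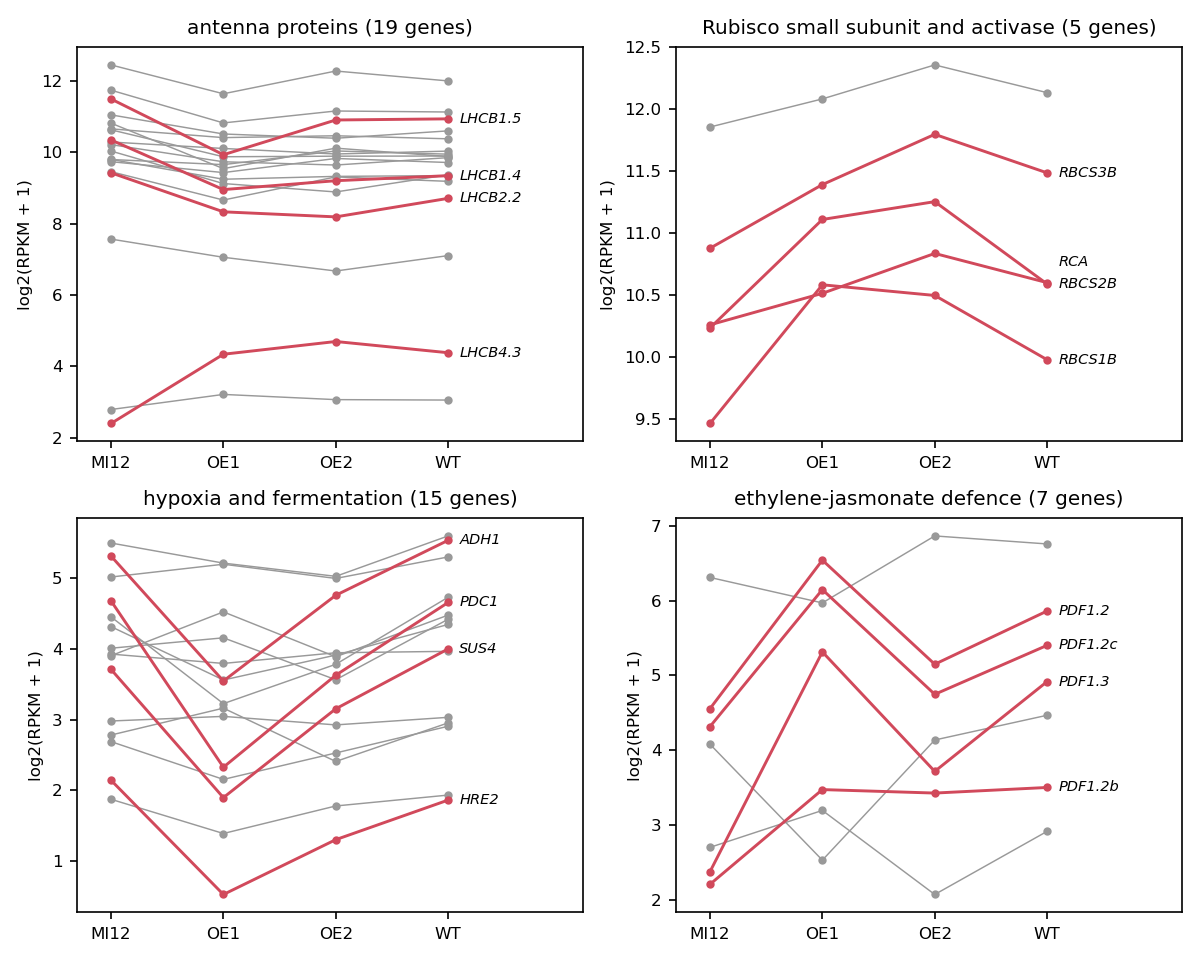
Levels as log2(RPKM + 1) on the y axis in MI12, OE1, OE2 and WT for the compared genes of 4 lists, 1 line per gene, with the 4 genes of largest difference per list in red. Of these 4 columns, MI12 was mostly the highest for antenna genes other than LHCB4.3 and the lowest for all 5 Rubisco and activase genes. PDC1, ADH1, SUS4 and HRE2 dip in OE1 and OE2, and the 4 defensins are lowest in MI12 among these columns.

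Markers of tissue makeup differed between the columns and are given beside these results. Of 15 listed root tissue markers 12 were compared. These genes, among them the CASP genes of the Casparian strip, were above both overexpressors at 11 of 12 compared genes (41.3% of all compared genes were), with a median of 0.53 and a sum over all 15 of 792 RPKM in MI12, against 481 RPKM in OE1, 641 RPKM in OE2 and 731 RPKM in WT. CASP5 was at 2.41 RPKM in MI12, against 0.671 RPKM in OE1 and 0.871 RPKM in OE2. Root hair genes were above both at 11 of 12, with a median of 0.42 and none past 2-fold, led by LRX1, a cell wall protein of root hairs, at 14.7 RPKM in MI12 against 5.79 RPKM in OE1 and 9.43 RPKM in OE2. Stomatal lineage and guard cell genes were below both at 8 of 12 (28.6% of all compared genes were) and above both at none, with a median of -0.27 and none past 2-fold. Of 4 floral genes, AG, AP3 and PI were each under 1 RPKM in all 3 columns, and SEP3, the 1 compared, was at 2.92 RPKM in MI12, against 1.38 RPKM in OE1 and 1.73 RPKM in OE2, a difference of 0.62. The part of tissue makeup in the differences above was not tested.

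Cell division and DNA damage genes leaned the same way as the root markers. Of 15 cell division genes, 14 were above both overexpressors (41.3% of all compared genes were), with a median of 0.29 and none at 2-fold. CYCB1;1, a mitotic cyclin, was at 3.74 RPKM in MI12, against 2.37 RPKM in OE1 and 2.75 RPKM in OE2. Of 8 compared DNA damage genes, 7 were above both (41.3% of all) and 1 was at least 2-fold higher (0.325% of all). That gene, NAC044, a transcription factor that halts the cycle after DNA damage, was at 5.80 RPKM in MI12, against 2.68 RPKM in OE1, 1.08 RPKM in OE2 and 0.733 RPKM in WT. MI12 thus held the highest value of NAC044, and OE1 exceeded OE2.

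**Figure D4:**
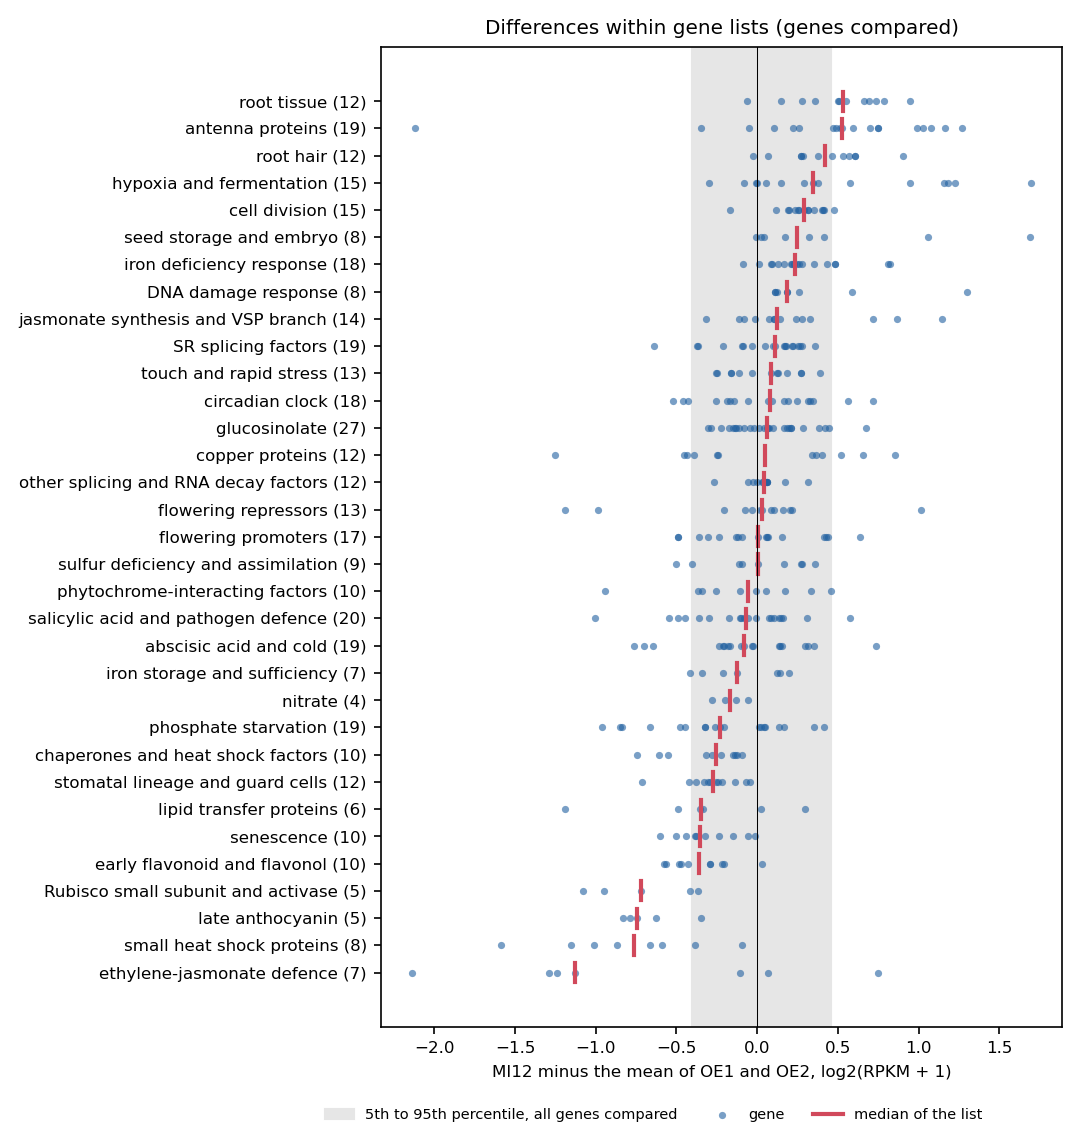
Differences of MI12 from the mean of OE1 and OE2 on the log2(RPKM + 1) scale (x axis) for the compared genes of each list, with the number of genes in brackets, points for genes, red bars for list medians and a grey band for the middle 90% of all compared genes. Medians of ethylene-jasmonate defence, small heat shock, late anthocyanin and Rubisco genes lie below the band, and those of root tissue and antenna genes above it.

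Flowering repressors held genes of opposite direction. FLC, the central repressor of flowering before winter, was at 0.033 RPKM in MI12, against 1.74 RPKM in OE1, 1.02 RPKM in OE2 and 0.249 RPKM in WT. About 3 reads lay behind the MI12 value, and the ratio to OE1 was 0.0175 with a counting interval from 0.00357 to 0.0519. Only OE1 and OE2, the columns where it was high, carried FLC past the filter. MI3 was at 0.289 RPKM and OE3 at 0.176 RPKM. SVP, a partner of FLC, was at 9.12 RPKM in MI12, against 15.3 RPKM in OE1 and 23.8 RPKM in OE2, just short of 2-fold. MAF1 (FLM), an FLC relative, was at 8.72 RPKM in MI12, against 3.98 RPKM in OE1, 3.65 RPKM in OE2 and 5.003 RPKM in WT. Over the 13 compared repressors the median was 0.03, and FT, the mobile flowering signal, was at 1.07 RPKM in MI12, against 0.399 RPKM in OE1 and 0.673 RPKM in OE2.

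Splicing factors differed little in total level. Of 19 compared SR proteins, regulators of splice site choice, none passed 2-fold, with a median of 0.11 and a range from -0.64 to 0.36. RS31a was the lowest at 4.74 RPKM in MI12, against 8.10 RPKM in OE1 and 7.75 RPKM in OE2, and SR34b the highest at 5.97 RPKM in MI12, against 4.51 RPKM in OE1 and 4.35 RPKM in OE2. For both genes the overexpressors were closer to each other than to MI12. None of 12 other splicing and RNA decay factors passed 2-fold, with a median of 0.05.

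The cruciferins, which are seed storage proteins, were higher in MI12. CRU3 was at 13.5 RPKM in MI12, against 6.18 RPKM in OE1, 1.81 RPKM in OE2 and 1.03 RPKM in WT. CRA1 was at 23.8 RPKM in MI12, against 12.7 RPKM in OE1, 9.42 RPKM in OE2 and 2.78 RPKM in WT. Of 21 listed genes only 8 were compared, since the rest stayed under 1 RPKM in all but at most 1 column. The median of the 8 was 0.25, and MI12, OE1 and OE2 each stood above WT for these cruciferins.

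For the iron and phosphate lists the medians against OE1 and against OE2 had opposite signs. Of 18 compared iron deficiency genes, the median difference was -0.25 from OE1 and 0.60 from OE2. BHLH100, a transcription factor induced by iron deficiency, was at 17.1 RPKM in MI12, against 38.7 RPKM in OE1 and 5.14 RPKM in OE2, at least 2-fold below OE1 and above OE2. Its relative bHLH38 was at 29.0 RPKM in MI12, against 36.2 RPKM in OE1 and 6.84 RPKM in OE2. For 19 phosphate starvation genes the median was 0.14 from OE1 and -0.55 from OE2, and PS2, a phosphatase below both overexpressors, was at 13.7 RPKM in MI12, against 17.3 RPKM in OE1 and 43.5 RPKM in OE2. The median from the mean was 0.24 for the iron list and -0.23 for the phosphate list.

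Lipid transfer proteins, which carry lipids to the cell surface, also had medians of opposite sign. The median of the 6 was -0.35 from the mean, 0.36 from OE1 alone and -0.85 from OE2 alone. LTP4 was at 2.58 RPKM in MI12, against 4.35 RPKM in OE1 and 11.5 RPKM in OE2, below both overexpressors. It alone of the 6 passed 2-fold (0.773% of all compared genes did). ARGOS and ARL, promoters of organ growth, were highest in OE1 and lowest in OE2, with ARGOS at 21.6 RPKM in MI12, against 30.3 RPKM in OE1 and 7.96 RPKM in OE2. MI12 lay between the overexpressors at both genes.

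Single members of other lists passed 2-fold, as 0.773% of all compared genes did. CSD2, a copper and zinc superoxide dismutase of chloroplasts, was at 9.09 RPKM in MI12, against 27.8 RPKM in OE1, 19.0 RPKM in OE2 and 10.5 RPKM in WT, while the median of the 12 copper proteins was 0.05. PR1, a marker of salicylic acid defence, was at 22.2 RPKM in MI12, against 34.1 RPKM in OE1, 60.6 RPKM in OE2 and 30.005 RPKM in WT, while the median of its list of 20 was -0.07. TAT3, a tyrosine aminotransferase induced by jasmonate, was at 22.2 RPKM in MI12, against 3.93 RPKM in OE1 and 21.4 RPKM in OE2, level with OE2. The median of the 14 jasmonate synthesis and response genes was 0.12.

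The other lists held no gene past 2-fold. Their medians were -0.35 for 10 senescence genes, -0.17 for 4 nitrate genes, -0.13 for 7 iron storage genes, -0.08 for 19 abscisic acid and cold genes, -0.06 for 10 phytochrome-interacting factors, 0.00 for 9 sulfur genes and 17 flowering promoters, 0.06 for 27 glucosinolate genes, 0.08 for 18 clock genes and 0.09 for 13 touch and rapid stress genes. Nearest to 2-fold among them was PIL1, a bHLH factor of the shade response, at 1.47 RPKM in MI12, against 4.43 RPKM in OE1 and 3.16 RPKM in OE2, a difference of -0.95.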

How the data were processed

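RNA of 11-day-old seedlings was sequenced from TruSeq libraries, per the labels' protocols. The authors deposited 1 table of RPKM values with 33602 genes and 1 column for each of 6 genotypes, and every column was matched to its genotype by name. Per the submitters' processing notes, the genome was TAIR10. No source used here names the aligner, the counter, the strand setting or how a genotype's libraries were merged, so overlapping, antisense and near-identical genes are uncertain. The labels do not say whether libraries of 1 genotype came from separate plantings.

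Values were compared as log2(RPKM + 1), a pseudocount of 1, which understates the differences of low genes. The RefSeq TAIR10.1 annotation gave symbols, coordinates and sequences for the 32835 gene identifiers that it shares with the table. Depth was estimated from the steps of low values at about 95 mega-reads in MI12, 96.2 in OE1 and 79.5 in OE2. Between 37.1% and 38.9% of low values came within 0.1 of whole reads, beside 20% by chance, so depths and reads per gene are approximate. Ratio intervals are 95% exact binomial (Clopper-Pearson) intervals on those reads. Without molecular identifiers, reads are not independent molecules, so the intervals hold for counting error alone, and a gene at 0 was set to a floor of 3 counts per column.

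The text names the PTB genes, the 12 genes furthest above both overexpressors and the 12 furthest below both with at least 5 RPKM, members of 37 gene lists past 2-fold (up to 4 per list) or furthest on the side of the median, and genes with the overexpressors 2-fold on opposite sides. Genes outside this rule are said to be so or belong to a list described. The comparison, the lists and the rule were chosen with earlier results of these data known. Chloroplast-encoded, mitochondrially encoded and ribosomal RNA genes were taken by locus prefix or annotated type. Alternatives were pseudocounts of 0.1 and 0.5, other filters on low values, median-of-ratios scaling, quantile normalization, the log2 of the mean RPKM, each overexpressor alone, and the table without organelle and ribosomal RNA genes. A filter of 5 RPKM in the highest of MI12, OE1 and OE2 was added after seeing the data. The counting was also run on simulated reads with planted changes and counting error alone. That run holds no variation between plants, so it cannot show how often unchanged genes pass 2-fold in these data. Figures were drawn with matplotlib 3.10.9, and values computed in Python 3.11.15 with scipy 1.17.1, pandas 2.3.3 and numpy 2.4.6.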

Additional observations from a re-analysis of the deposited data

Results flagged for a closer look

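MIR319a also stood high in a column outside the comparison, 261 RPKM in MI3, the PTB3 knockdown, against 0.121 RPKM in WT. AT1G68250, an uncharacterized protein, lay 1.26 below OE1 (a log2 difference of -1.26) and 1.13 above OE2, with 1.26 RPKM in MI12, 4.41 RPKM in OE1 and 0.030 RPKM in OE2, and about 2 reads lay behind the OE2 value. BHLH100 lay on opposite sides of the overexpressors too, with differences of -1.14 from OE1 and 1.56 from OE2. These differences were not tested, since there was 1 value per genotype.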

How the results depend on the processing

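The counts of genes past 2-fold depended most on the pseudocount and on the overexpressor used. With a pseudocount of 0.1 they were 390 in all, 211 higher and 179 lower in MI12, and past both overexpressors 190, 78 above and 112 below. With a pseudocount of 0.5 they were 242 in all and 114 higher, and past both 125, 48 above and 77 below. Against OE1 alone they were 299 in all and 174 higher. The share of higher among called genes was 42.1%, against 54.1% with a pseudocount of 0.1 and 58.2% against OE1 alone. Under the other alternatives each of these counts stayed within 1.5 times. Of 36 list medians, 15 changed sign against OE1 alone or OE2 alone and 6 under other alternatives. Only 1 of these was called, with at least 0.25 in size, the lipid transfer proteins at 0.36 against OE1 alone. Against OE1 alone the median was -0.25 for the iron deficiency list and 0.14 for the phosphate list, and with the filter of 5 RPKM in 2 columns it was -0.24 for copper proteins. Without the filter on low values, members near 0 enter. The medians were then -0.14 for ethylene-jasmonate defence, -0.59 for small heat shock genes, -0.38 for late anthocyanin genes and 0.04 for seed genes. With a pseudocount of 0.1 the medians were -1.12 for small heat shock genes, -1.04 for late anthocyanin genes and 0.45 for seed genes. Over 36 list medians and up to 11 alternatives, 329 values moved by less than 0.1 on the log2 scale and 56 by more, the called change of sign not counted. Of named genes, 821 values moved by less than 0.1 and 243 by more. Leaving out a library was not run, because the table holds 1 column per genotype. No paired analysis was possible because the columns carry no replicate numbers. Depth limits the low genes, such as FLC and the small heat shock genes.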
